A study of Mus musculus with 4 samples.

Results

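The Hippo pathway genes described here are Yap1, Wwtr1, Tead1, Tead2, Tead3, Tead4, Lats1, Lats2, Sav1 and Vgll4, which are 10 of the 21884 genes in the deposited count matrices. They were taken by symbol, and each symbol occurred in the matrices. The matrices come from single-nucleus RNA sequencing of 4 hearts, 1 whole heart per library, from male wild-type C57BL/6J mice. Of these offspring, 2 had an injured father and 2 had an uninjured father. The offspring themselves were all injured 1 day after birth, in both groups, and their hearts were taken 21 days after the injury. Uninjured offspring are not among the libraries, so the comparison between father groups is one between injured hearts. The sources used here name neither the kind of injury, the litters nor the single fathers, and each heart counts as 1 replicate, so the p-values measure the spread between these hearts only.

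Hippo signalling is a kinase cascade that limits organ growth. The kinases Mst1 and Mst2, encoded by Stk4 and Stk3, work with the scaffold protein Sav1 to activate the kinases Lats1 and Lats2. These phosphorylate the coactivators Yap1 and Taz, the product of Wwtr1, and phosphorylated Yap1 and Taz are kept out of the nucleus or degraded. Unphosphorylated Yap1 and Taz enter the nucleus and bind the Tead proteins, which hold the DNA contact and drive growth and matrix genes such as Ccn1, Ccn2 and Ankrd1. Vgll4 competes with Yap1 for the Tead proteins. In the mouse heart, loss of Sav1 or of both Lats kinases, or active Yap1, is known to raise cardiomyocyte proliferation, and the pathway is studied as a brake on regeneration after the first days of life. Transcript levels do not show the phosphorylation on which this switch rests.

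After filters and removal of doublets, 8187 and 9455 nuclei with 23298694 and 32569308 UMIs were left for injured fathers. For uninjured fathers, 9416 and 6791 nuclei with 31467616 and 15651493 UMIs were left. The second uninjured-father library had the lowest median, 1860 UMIs per nucleus, and the highest share of called doublets, 14.9%, against 9.62% to 10.7% in the other libraries. The 10 genes took 39321 and 56171 UMIs in the injured-father libraries and 51735 and 25269 UMIs in the uninjured-father libraries. The nuclei fell into 24 clusters, of which 2 were left unnamed, and 8 classes held at least 50 nuclei in each library. These classes are called cardiomyocyte-like, fibroblast-like, vascular endothelial-like, endocardial-like, pericyte-like, smooth muscle-like, macrophage- or monocyte-like and B lymphocyte-like after their marker genes. Cardiomyocyte-like nuclei were 23.1% and 26.7% of nuclei in the injured-father libraries and 30.6% and 31.2% in the uninjured-father libraries, and vascular endothelial-like nuclei were 23.0% and 23.0% against 19.2% and 20.2%. Among the 38134 nuclei that passed the filters before doublets were removed, 157 barcodes occurred in more than 1 library, on 314 nuclei.

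Levels are given as scaled CPM, that is the UMIs of a gene in all nuclei of a class and library, per 1000000 UMIs, with TMM factors that align the bulk of genes between classes. The factor averaged 0.70 in cardiomyocyte-like nuclei and 1.00 to 1.17 in the others. Without the factors, the median gene of a comparison between cardiomyocyte-like nuclei and another class moved by -0.58 to -0.40 on the log2 scale, and directions that flip with it are stated beside the result. Levels are compared for 1 gene across classes or hearts, not between genes, since longer genes give more UMIs in nuclear RNA.

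The promoters give the sequence context of these genes. Of the 10 genes, 8 have an entry in the RefSeq promoter table of GRCm38.p6, the others being Tead1 and Tead4. The core Tead motif GGAATG, on either strand (CATTCC on the other), occurred in the 250 bases before the start of 5 of these 8 genes (62.5%). It occurred in the same window of 3416 of 27025 genes in the table (12.6%). The windows of 60 bases around the motif are shown for those 5 genes and for Ccn1, a known target of Yap1 and Tead, with the motif in capitals and each sequence on the gene's own strand. They lie at chr9:8004705-8004764 (Yap1), chr3:57576014-57576073 (Wwtr1), chr17:28350955-28351014 (Tead3), chr12:69987076-69987135 (Sav1), chr6:114969253-114969312 (Vgll4) and chr3:145650056-145650115 (Ccn1), all on the minus strand and outside annotated exons, with the Vgll4 window inside the annotated span of its gene. The window of Tead2, Lats1 and Lats2 held no match.
Yap1: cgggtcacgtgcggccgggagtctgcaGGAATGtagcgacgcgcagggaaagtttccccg
Wwtr1: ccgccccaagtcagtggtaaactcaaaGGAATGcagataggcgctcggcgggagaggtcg
Tead3: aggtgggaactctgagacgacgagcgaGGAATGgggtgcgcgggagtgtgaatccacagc
Sav1: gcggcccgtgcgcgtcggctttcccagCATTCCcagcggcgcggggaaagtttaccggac
Vgll4: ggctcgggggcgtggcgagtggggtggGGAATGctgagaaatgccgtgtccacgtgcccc
Ccn1: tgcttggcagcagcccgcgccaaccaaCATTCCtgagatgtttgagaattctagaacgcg
The motif stood 141 bases before the start of Yap1, 136 before Wwtr1, 182 before Tead3, 106 before Sav1, 82 before Vgll4 and 103 before Ccn1. A match of these letters is a description of the sequence and does not show that a Tead protein binds there.

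Each of the 10 genes had its own profile over the classes. Only classes with at least 50 nuclei in each library were ranked and tested. Among these, cardiomyocyte-like nuclei held the highest Yap1 and Tead1 levels, and endothelial and endocardial nuclei the highest Wwtr1, Tead4 and Vgll4 levels. Lats2, Sav1, Tead2, Tead4 and Vgll4 were at their lowest mean in cardiomyocyte-like nuclei. Over all 69 comparisons of a gene between cardiomyocyte-like nuclei and another class, 56 passed an adjusted p of 0.05 (edgeR quasi-likelihood test, library as a block, Benjamini-Hochberg over all genes). Such calls were common among all genes. Against fibroblast-like nuclei, 3 of the 10 genes were higher and 4 lower in cardiomyocyte-like nuclei, beside 39.2% of all genes higher and 40.2% lower (79.4% either way). Against vascular endothelial-like nuclei, 3 were higher and 6 lower, beside 39.2% and 40.5% of all genes (79.7%). Against endocardial-like nuclei, 3 were higher and 6 lower, beside 34.4% and 32.7% (67.1%). Against pericyte-like nuclei, 4 were higher and 4 lower, beside 36.8% and 38.2% (74.9%). Against smooth muscle-like nuclei, 2 were higher and 4 lower, beside 24.6% and 23.1% (47.7%). Against macrophage- or monocyte-like nuclei, 5 were higher and 4 lower, beside 35.2% and 34.2% (69.4%). Against B lymphocyte-like nuclei, 4 of 9 tested were higher and 4 lower, beside 28.4% and 27.1% (55.6%). Called genes in these 7 comparisons numbered 2767 to 4955 higher and 2604 to 5081 lower, and with UMI totals as the only scaling 1715 to 3332 higher and 3864 to 7885 lower.

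**Figure D1:**
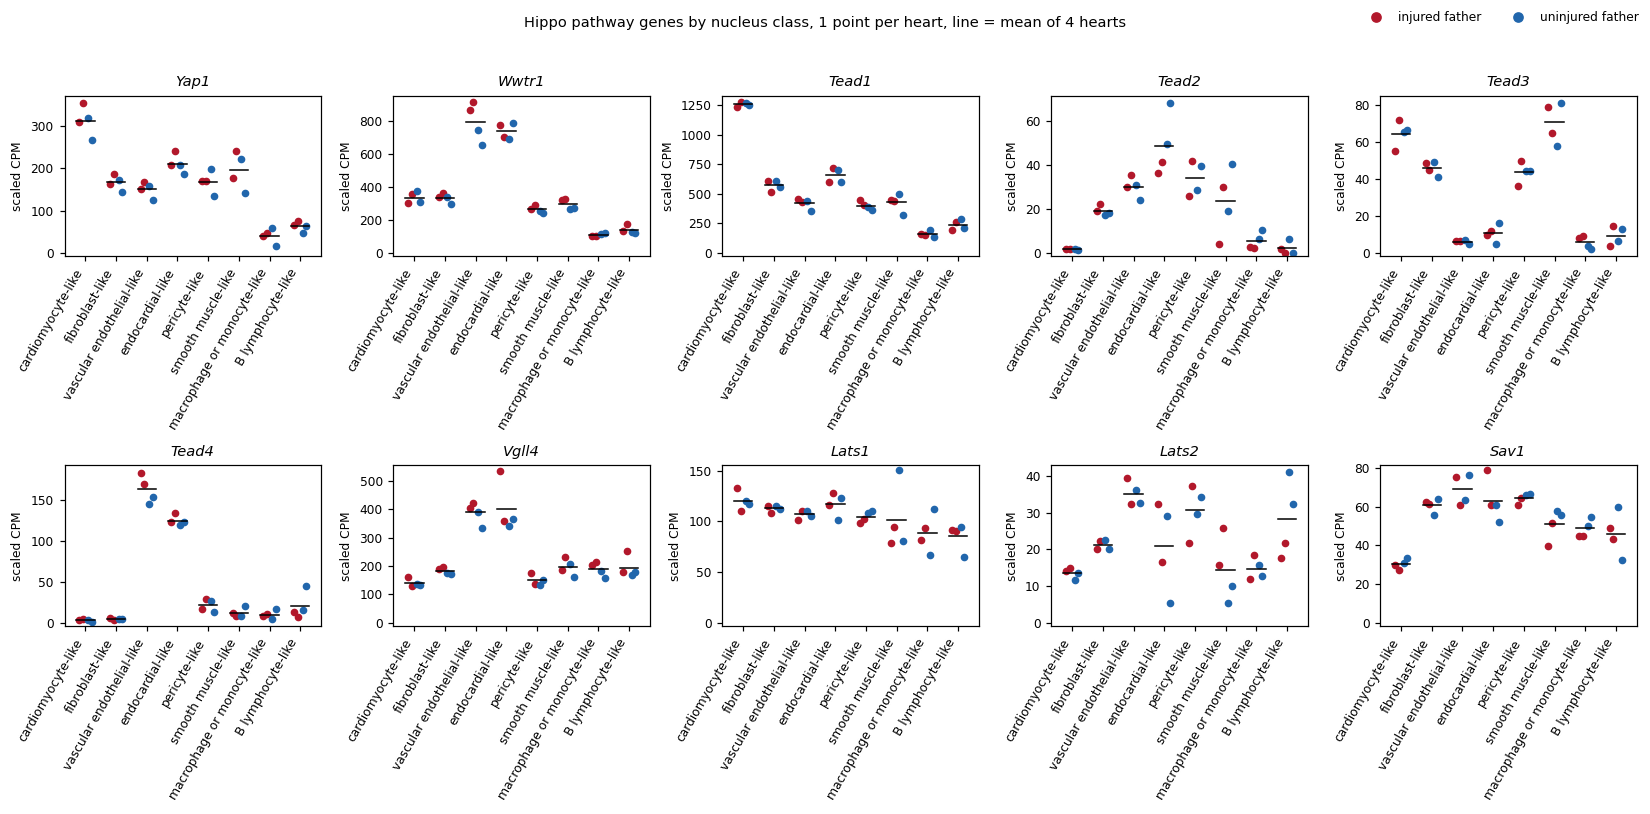
Level of each gene in scaled CPM (vertical axes, linear, each panel its own range) in the 8 nucleus classes (horizontal axes); points are hearts, red for injured fathers and blue for uninjured fathers, and lines are means of 4 hearts. Yap1 and Tead1 stand highest in cardiomyocyte-like nuclei with no overlap with the next class, and Tead4 stands at 163 in vascular endothelial-like and 125 in endocardial-like nuclei, against at most 21.3 elsewhere.

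Yap1, the main coactivator of the pathway, lies at chr9:7931999-8004596 on the minus strand. In cardiomyocyte-like nuclei it had 310 and 354 scaled CPM in the injured-father hearts, against 317 and 265 scaled CPM in the uninjured-father hearts (mean 312 ± 36.5, SD, n = 4). Endocardial-like nuclei came next with a mean of 210 ± 22.3 scaled CPM, and their 4 hearts did not overlap with those of cardiomyocyte-like nuclei. The order went on with smooth muscle-like (196), pericyte-like (168), fibroblast-like (167) and vascular endothelial-like nuclei (150), which overlapped from each class to the next. B lymphocyte-like nuclei (63.5) and macrophage- or monocyte-like nuclei (40.7) were lowest and apart from all others, with overlap between this pair. Yap1 was higher in cardiomyocyte-like nuclei in all 7 comparisons, by 0.88 ± 0.05 on the log2 scale (SE) against fibroblast-like nuclei (adjusted p = 2.66e-08, edgeR) and by 2.83 ± 0.15 against macrophage- or monocyte-like nuclei. The smallest differences were 0.51 ± 0.09 against endocardial-like and 0.55 ± 0.13 against smooth muscle-like nuclei. With UMI totals as the only scaling these were 0.05 and 0.15 and no longer passed (adjusted p = 0.611 and 0.369, edgeR).

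Wwtr1 encodes Taz, the paralogue of Yap1, and lies at chr3:57455649-57575910 on the minus strand. Its profile differed from that of Yap1: it was highest in vascular endothelial-like nuclei, with 862 and 910 scaled CPM in the injured-father hearts, against 742 and 654 in the uninjured-father hearts (mean 792 ± 116, n = 4). Endocardial-like nuclei followed with 738 ± 49.3 scaled CPM, overlapping with the vascular ones. Cardiomyocyte-like nuclei had 302 and 355 scaled CPM in the injured-father hearts, against 373 and 306 in the uninjured-father hearts (mean 334 ± 35.8). They overlapped with fibroblast-like nuclei (333), which overlapped with smooth muscle-like (296) and these with pericyte-like nuclei (263). B lymphocyte-like (141) and macrophage- or monocyte-like nuclei (108) were lowest. Wwtr1 was lower in cardiomyocyte-like than in vascular endothelial-like nuclei by 1.32 ± 0.08 on the log2 scale (log2 difference -1.32, adjusted p = 3.72e-10, edgeR) and than in endocardial-like nuclei (log2 difference -1.20 ± 0.10). Against fibroblast-like nuclei the difference was -0.02 ± 0.06 (adjusted p = 0.829), and with UMI totals only it was -0.59 and passed (adjusted p = 2.82e-06). Against pericyte-like nuclei it was higher by 0.27 ± 0.07 (adjusted p = 0.0018), and with UMI totals only it was lower, at -0.23 (adjusted p = 0.00544). Against smooth muscle-like nuclei it was 0.06 ± 0.13 (adjusted p = 0.726), and with UMI totals only it was lower, at -0.34 (adjusted p = 0.0275, edgeR).

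The 4 Tead genes encode the DNA-binding partners of Yap1 and Taz, and they divided the classes between them. Tead1 (chr7:112679318-112906807, plus strand) had 1236 and 1276 scaled CPM in cardiomyocyte-like nuclei of injured-father hearts, against 1273 and 1253 in those of uninjured-father hearts (mean 1260 ± 18.4). The next tested class, endocardial-like nuclei, had 658 ± 60.9 scaled CPM and did not overlap with it. A cluster named Schwann or glial, outside the tested classes, had 894 scaled CPM (798 to 973 over 3 hearts). That was below every heart of the cardiomyocyte-like class, but it overlapped with the small cardiomyocyte-like clusters, at 923 (823 to 998) and 777 (675 to 891). Macrophage- or monocyte-like nuclei were lowest at 162 ± 27.6. Tead1 was higher in cardiomyocyte-like nuclei in all 7 comparisons, from 0.88 ± 0.08 on the log2 scale against endocardial-like nuclei to 2.88 ± 0.11 against macrophage- or monocyte-like nuclei. With UMI totals only it was higher in each of the 7 as well, and the endocardial difference was 0.42.

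Tead3 (chr17:28331671-28350817, minus strand) separated contractile and stromal classes from endothelial and blood-derived ones. Smooth muscle-like nuclei had 78.8 and 64.6 scaled CPM in the injured-father hearts, against 57.6 and 80.9 in the uninjured-father hearts (mean 70.5 ± 11.3), on 72 UMIs in all. Cardiomyocyte-like nuclei had 54.8 and 71.5 scaled CPM in the injured-father hearts, against 65.1 and 66.4 in the uninjured-father hearts (mean 64.4 ± 7.01), and overlapped with smooth muscle-like nuclei. Fibroblast-like (45.9) and pericyte-like nuclei (43.6) followed, and the other 4 classes held 5.80 to 10.9 scaled CPM. Tead3 was higher in cardiomyocyte-like than in vascular endothelial-like nuclei by 3.29 ± 0.13 on the log2 scale (adjusted p = 2.59e-12, edgeR) and than in macrophage- or monocyte-like nuclei by 3.29 ± 0.26. It was also higher than in fibroblast-like nuclei by 0.47 ± 0.09 and than in pericyte-like nuclei by 0.49 ± 0.11, but with UMI totals only these were -0.11 and -0.01. Against smooth muscle-like nuclei the difference was -0.23 ± 0.21 (adjusted p = 0.377), and with UMI totals only it was -0.63 and passed (adjusted p = 0.0132).

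Tead4 (chr6:128224288-128300823, minus strand) was a gene of endothelial and endocardial nuclei in these hearts. Vascular endothelial-like nuclei had 183 and 169 scaled CPM in the injured-father hearts, against 145 and 153 in the uninjured-father hearts (mean 163 ± 16.6). Endocardial-like nuclei had 125 ± 6.34 and did not overlap with them. Pericyte-like nuclei had 21.3 ± 7.35 and cardiomyocyte-like nuclei 3.18 ± 1.63, the lowest mean. Cardiomyocyte-like nuclei rested on 26 and 48 UMIs in the injured-father hearts, against 37 and 5 UMIs in the uninjured-father hearts. Tead4 was lower in cardiomyocyte-like than in vascular endothelial-like nuclei (log2 difference -5.66 ± 0.17, a 50.5-fold difference, adjusted p = 5.04e-14, edgeR) and than in endocardial-like nuclei (-5.26 ± 0.22). Against fibroblast-like nuclei, which had 4.93 ± 0.84 scaled CPM, the difference was -0.55 ± 0.30 (adjusted p = 0.117). There it was 0.71 with doublets kept (adjusted p = 0.004), -1.13 with UMI totals only (adjusted p = 0.00463) and -0.92 without the second injured-father heart (adjusted p = 0.0175). The difference from smooth muscle-like nuclei, -1.96 ± 0.60, was -1.37 without the second uninjured-father heart and no longer passed (adjusted p = 0.0936).

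Tead2 (chr7:45215753-45233644, plus strand), best known from early embryos, had its highest mean among the tested classes in endocardial-like nuclei. These had 36.2 and 41.3 scaled CPM in the injured-father hearts, against 49.3 and 68.1 in the uninjured-father hearts (mean 48.7 ± 14), on 148 UMIs in all. A cluster named lymphatic endothelial, outside the tested classes, had a higher mean of 58.6 scaled CPM (40.0 to 70.8 over 3 hearts). Its hearts overlapped with those of endocardial-like nuclei. Pericyte-like (34.0), vascular endothelial-like (30.1), smooth muscle-like (23.4) and fibroblast-like nuclei (19.3) overlapped from each class to the next. Cardiomyocyte-like nuclei had 1.61 ± 0.26 scaled CPM, on 13 and 17 UMIs in the injured-father hearts and 18 and 7 UMIs in the uninjured-father hearts. Tead2 was lower in cardiomyocyte-like nuclei than in the 6 classes tested, by a log2 difference of -4.87 ± 0.26 against endocardial-like nuclei (adjusted p = 4.1e-12, edgeR). The difference from macrophage- or monocyte-like nuclei, -1.66 ± 0.54, was -1.45 and -1.19 without the first or the second uninjured-father heart and then did not pass (adjusted p = 0.064 and 0.095). Tead2 overlaps Cd37, a leukocyte gene on the opposite strand, and reads of the pair could not be told apart here if strand was not used in counting.

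Vgll4, the competitor of Yap1 for Tead proteins (chr6:114860628-114969994, minus strand), was highest among the tested classes in endocardial and endothelial nuclei, as were Wwtr1 and Tead4. Endocardial-like nuclei had 534 and 360 scaled CPM in the injured-father hearts, against 341 and 365 in the uninjured-father hearts (mean 400 ± 89.9), so that 1 heart set most of the spread. Vascular endothelial-like nuclei had 389 ± 37.7 scaled CPM and overlapped with them. The other 6 tested classes held 141 to 196 scaled CPM. Outside the tested classes, a cluster named Schwann or glial had 336 scaled CPM (315 to 350 over 3 hearts). It overlapped with vascular endothelial-like nuclei (336 to 423). A cluster named T or NK lymphocyte had 262 (220 to 323), and one named lymphatic endothelial 360 (326 to 384), each over 3 hearts. Cardiomyocyte-like nuclei were at the low end, with 162 and 129 scaled CPM in the injured-father hearts, against 136 and 135 in the uninjured-father hearts. Vgll4 was lower there than in vascular endothelial-like nuclei (log2 difference -1.55 ± 0.07, adjusted p = 1.35e-11, edgeR), and it was lower in 6 of the 7 comparisons. The exception, pericyte-like nuclei, gave -0.15 ± 0.08 (adjusted p = 0.0792), which was -0.66 with UMI totals only (adjusted p = 4.59e-08) and -0.20 in the largest clusters of the classes (adjusted p = 0.024).

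The kinase genes and their scaffold gave another pattern. Lats1 (chr10:7681214-7716460, plus strand) had nearly the same level in all 8 classes, with means of 85.3 to 120 scaled CPM and overlap between each class and the next. In cardiomyocyte-like nuclei, where its mean was highest, it had 133 and 110 scaled CPM in the injured-father hearts, against 120 and 117 in the uninjured-father hearts. It passed in 1 of 7 comparisons, being higher in cardiomyocyte-like than in macrophage- or monocyte-like nuclei (0.39 ± 0.13 on the log2 scale, adjusted p = 0.0122, edgeR). With UMI totals only that difference was -0.18 (adjusted p = 0.227), and without the first injured-father or the first uninjured-father heart it was 0.31 or 0.29 and did not pass (adjusted p = 0.0769 and 0.0924). With UMI totals only, Lats1 was also lower in cardiomyocyte-like than in fibroblast-like, vascular endothelial-like, endocardial-like and pericyte-like nuclei, by log2 differences of -0.51 to -0.35. The differences from smooth muscle-like (0.09) and B lymphocyte-like nuclei (0.27) did not pass and were then -0.31 and -0.27, which did not pass either (adjusted p = 0.156 and 0.175, edgeR).

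Lats2 (chr14:57689662-57758388, minus strand), the second kinase, was lower in cardiomyocyte-like nuclei than in 5 of 7 classes. Vascular endothelial-like nuclei had 39.3 and 32.3 scaled CPM in the injured-father hearts, against 36.1 and 32.7 in the uninjured-father hearts (mean 35.1 ± 3.31). Cardiomyocyte-like nuclei had 14 and 14.9 scaled CPM in the injured-father hearts, against 11.8 and 13.6 in the uninjured-father hearts (mean 13.6 ± 1.31). This was the lowest mean among the tested classes. Neighbouring classes overlapped throughout the order. The log2 difference was -1.45 ± 0.12 against vascular endothelial-like nuclei (adjusted p = 2.01e-08, edgeR) and -0.68 ± 0.11 against fibroblast-like nuclei. The call against endocardial-like nuclei (-0.74 ± 0.27, adjusted p = 0.0239) did not pass without the first injured-father heart (-0.51), without the first uninjured-father heart (-0.49), with doublets kept (-0.60) or with DESeq2 (-0.61). The call against B lymphocyte-like nuclei (-1.18 ± 0.35) did not pass without the first uninjured-father heart (-0.76). Lats2 overlaps the predicted gene Gm49361 on the same strand, so its counts are uncertain to that extent.

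Sav1 (chr12:69965012-69987002, minus strand), the scaffold of the cascade, was lower in cardiomyocyte-like nuclei in all 7 comparisons. Its mean was highest in vascular endothelial-like nuclei, with 75.1 and 60.6 scaled CPM in the injured-father hearts, against 63.4 and 76.2 in the uninjured-father hearts (mean 68.8 ± 7.98). Cardiomyocyte-like nuclei had 29.9 and 27.5 scaled CPM in the injured-father hearts, against 30.8 and 33.6 in the uninjured-father hearts (mean 30.5 ± 2.54), below every heart of vascular endothelial-like nuclei. The log2 difference was -1.25 ± 0.09 against vascular endothelial-like nuclei (adjusted p = 3.7e-09, edgeR), -1.02 ± 0.08 against fibroblast-like nuclei and -0.74 ± 0.16 against macrophage- or monocyte-like nuclei. The calls against smooth muscle-like (-0.87 ± 0.25) and B lymphocyte-like nuclei (-0.86 ± 0.25) did not pass without the first uninjured-father heart (-0.77 and -0.68, adjusted p = 0.0523 and 0.0661). Sav1 overlaps Atl1 on the opposite strand.

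**Figure D2:**
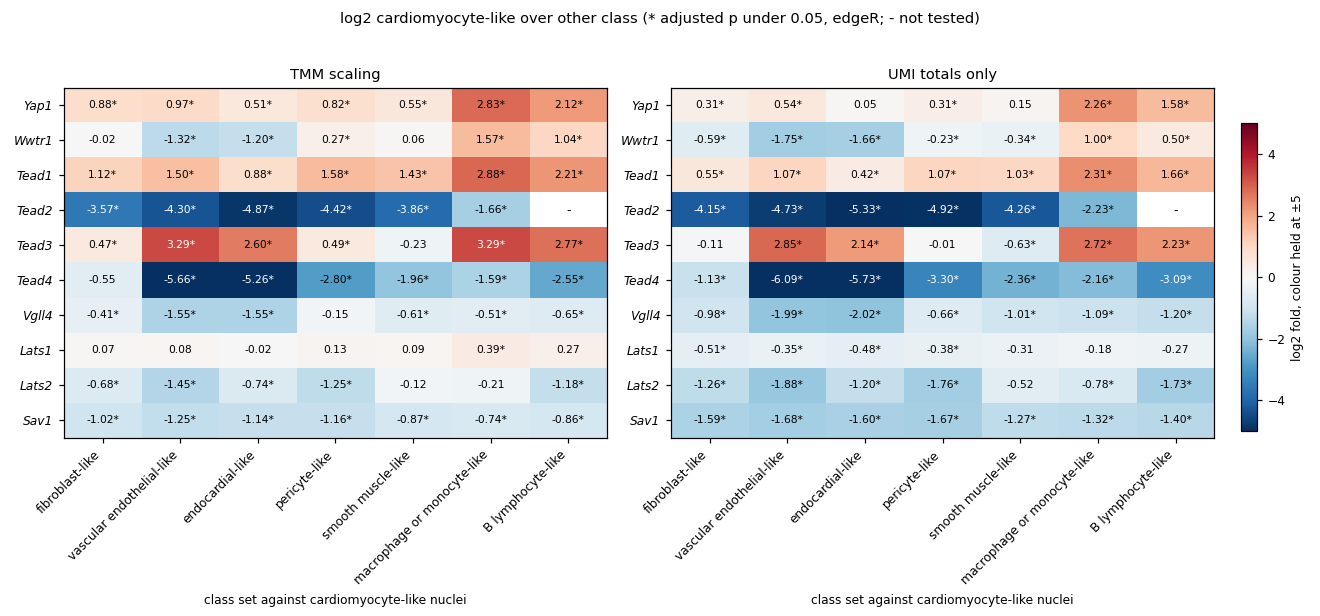
Log2 difference, cardiomyocyte-like over each other class (columns), for the 10 genes (rows), with TMM scaling on the left and UMI totals only on the right; red is higher and blue lower in cardiomyocyte-like nuclei, and asterisks mark an adjusted p under 0.05. Yap1 and Tead1 are positive in all 7 columns of both panels and Sav1 and Vgll4 negative in all 7, while Lats1 changes sign between the panels in 6 columns and Wwtr1 and Tead3 in 2 each.

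RNA that leaked from cardiomyocytes reaches other nuclei in droplets, and it was gauged with 12 cardiomyocyte markers such as Ttn and Myh6. Their summed level in other classes was 4.16% to 7.56% of that in cardiomyocyte-like nuclei, and 12.2% in B lymphocyte-like nuclei, where the hearts ranged from 7.45% to 16.2%. Yap1 in macrophage- or monocyte-like nuclei was at 12.8% of its cardiomyocyte-like level, beside 6.42% for the markers, and in the lowest heart it was at 6.36%. Tead3 in vascular endothelial-like nuclei was at 9.67%, beside 6.50% for the markers. Tead1 was at 19.0% in B lymphocyte-like nuclei, beside 12.2% for the markers. The cardiomyocyte markers gauge RNA from cardiomyocytes only, and these genes also had UMIs in other classes. How much of these low levels was leaked RNA was not tested, and they are not read as expression in those classes. Yap1 in fibroblast-like nuclei was at 53.6% and Tead1 at 45.5%, beside 4.16% for the markers. RNA also leaks the other way. The 11 vascular endothelial markers summed to 11635 to 13590 scaled CPM in their own class. They summed to 209 to 291 in cardiomyocyte-like and 578 to 678 in fibroblast-like nuclei. Tead4 was at 163, 3.18 and 4.93 in these 3 classes. How much of the low Tead4 levels was leaked RNA was not tested, and they are not read as expression there.

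The share of nuclei with at least 1 UMI followed depth as well as level. Yap1 was seen in 57.2% ± 8.11 of cardiomyocyte-like nuclei (SD, n = 4), against 21.3% ± 3.37 of vascular endothelial-like and 6.98% ± 3.03 of macrophage- or monocyte-like nuclei. The median depths were 4310, 1553 and 1532 UMIs. After thinning of each nucleus to 1000 UMIs the shares were 19.5%, 13.5% and 3.43%. Tead1 was seen in 93.2% of cardiomyocyte-like nuclei and in 56.8% after thinning, against 24.0% and 16.3% of macrophage- or monocyte-like nuclei. Tead4 was seen in 1.08% of cardiomyocyte-like and 21.3% of vascular endothelial-like nuclei, and in 0.224% and 14.3% after thinning. Thinning left out 3 cardiomyocyte-like, 1219 vascular endothelial-like and 279 macrophage- or monocyte-like nuclei with too few UMIs.

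Cardiomyocyte-like nuclei formed 4 clusters, and the genes differed between them. The cluster led by Fgf12 and Tmem163, with Nppa and Myl4 among its leading genes, held 2.36% to 12% of the class in each heart, and the cluster led by Grip1 and Cntn2 held 2.50% to 3.47%. Tead1 was at 923 (823 to 998 over 4 hearts) and 777 (675 to 891) scaled CPM in these small clusters. In the large clusters, numbers 0 and 2, it was at 1310 (1261 to 1360) and 1244 (1210 to 1262), so the ranges did not overlap. Yap1 was at 389 (282 to 466) in the cluster led by Grip1 and Cntn2, against 317 (264 to 367) and 282 (254 to 303) in the large clusters, with overlap. Wwtr1 was at 436 (371 to 511) in the cluster with Nppa and Myl4, against 339 (302 to 386) and 288 (262 to 324) in the large ones, so that it overlapped with the first of these. Lats1 was at 80.8 (71.9 to 88.4) in the cluster led by Grip1 and Cntn2, below the 103 to 136 seen over the hearts of the large clusters. This rested on 14 and 24 UMIs in the injured-father hearts and 34 and 12 UMIs in the uninjured-father hearts. In the cluster with Nppa and Myl4, Lats1 was at 90.6 (43.9 to 112) and overlapped with the large ones. Clusters were formed from these nuclei, so the differences are a description with no test. Cluster 0 held 57.1% and 55.9% of the class in the injured-father hearts, against 62.2% and 34.4% in the uninjured-father hearts, so the second uninjured-father heart had another mix.

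**Figure D3:**
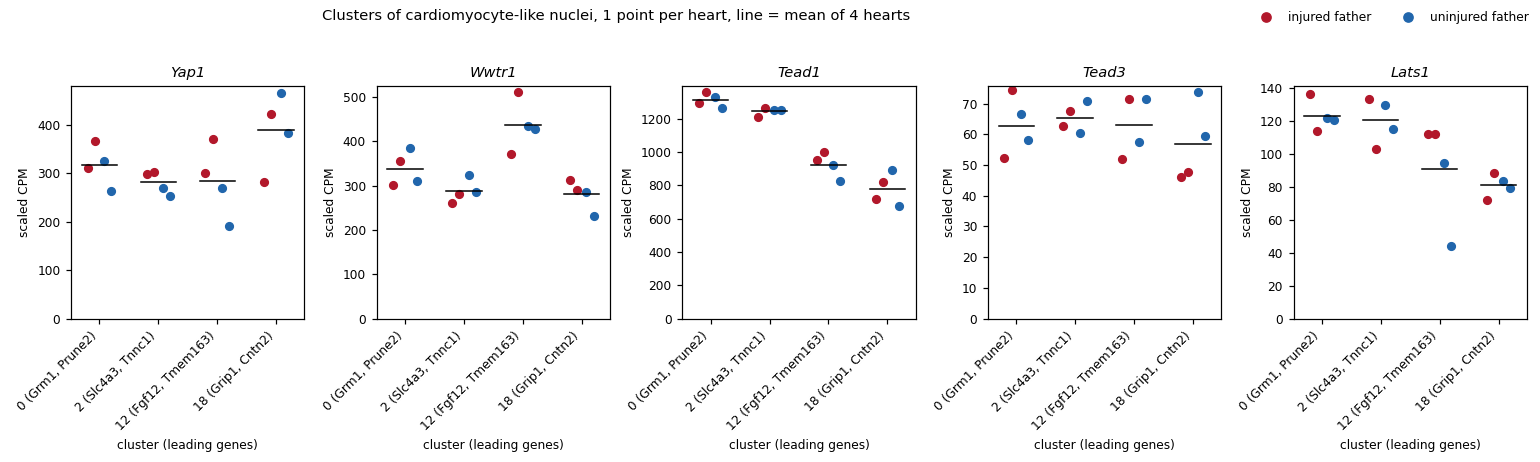
Scaled CPM (vertical axes from 0) of Yap1, Wwtr1, Tead1, Tead3 and Lats1 in the 4 clusters of cardiomyocyte-like nuclei (horizontal axes, with each cluster's 2 leading genes); points are hearts, red for injured and blue for uninjured fathers, and lines are means of 4 hearts. Tead1 is at 923 and 777 in the 2 small clusters on the right, against 1310 and 1244 in the 2 large ones.

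Among the 10 genes, profiles over the 32 points of class and heart were most alike for Yap1 and Tead1 (Pearson r = 0.905 of log2 scaled CPM with 1 added), Tead2 and Sav1 (r = 0.81) and Tead4 and Vgll4 (r = 0.796). They were most unlike for Tead3 and Tead4 (r = -0.55). Over 7149 genes with a mean of at least 20 scaled CPM, the profile nearest to Yap1 was that of Nedd4, a ubiquitin ligase (r = 0.943), followed by Gprasp1 (r = 0.936). Zbtb20, a transcription factor, and Ghr, the growth hormone receptor, were nearest to Tead1 (r = 0.966 and 0.94), followed by Map3k13. Tspan9, Myo6 and Zfp462 were nearest to Wwtr1 (r = 0.954, 0.94 and 0.938), and Car8, Rapgef3 and Shank3 to Vgll4 (r = 0.938, 0.928 and 0.927). Lats2 had no gene above r = 0.779, which Fam193b gave, before Set and Dnaja1. The points share hearts and depth, and with Spearman's rho only 1 of the 3 nearest genes stayed for Wwtr1, Lats2 and Vgll4, and 2 for Tead1.

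By father group, no difference was called for any of the 10 genes. Over the 8 classes, 70 fits could be made and 0 passed an adjusted p of 0.05 (edgeR), beside 0.00799% of all genes called in cardiomyocyte-like nuclei, 0.0161% in fibroblast-like, 0.0607% in endocardial-like, 0.0299% in pericyte-like and 0.119% in macrophage- or monocyte-like nuclei. No gene at all was called in vascular endothelial-like, smooth muscle-like or B lymphocyte-like nuclei (0%). DESeq2 and limma-voom also called 0 of the 10 genes in each class. At an unadjusted p under 0.05, 1 of the 70 fits passed, in vascular endothelial-like nuclei, where 5.24% of all genes did so. In the classes with none of the 10 genes, the share of all genes was 4.06% in cardiomyocyte-like, 3.27% in fibroblast-like, 4.62% in endocardial-like, 4.14% in pericyte-like, 3.98% in smooth muscle-like, 5.92% in macrophage- or monocyte-like and 5.3% in B lymphocyte-like nuclei. In counts simulated for the cardiomyocyte comparison, 66% of genes changed by 1 on the log2 scale were called. Of those changed by 2, 93% were called, and so were 8 unchanged genes. The simulation changed 100 genes of each size at once and gave genes of like level the same dispersion. Its shares can therefore lie above what these hearts allow.

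In cardiomyocyte-like nuclei, Yap1 had 310 and 354 scaled CPM in the injured-father hearts, against 317 and 265 in the uninjured-father hearts. The groups overlapped, and the log2 difference of 0.19 ± 0.14 had a 95% interval of -0.12 to 0.50 (adjusted p = 0.999, edgeR). Tead1 differed by -0.01 (interval -0.28 to 0.27), Wwtr1 by -0.05 (-0.37 to 0.28), Tead3 by -0.05 (-0.43 to 0.32), Lats1 by 0.04 (-0.28 to 0.35) and Vgll4 by 0.11 (-0.22 to 0.44). For these 5 genes the hearts of the groups overlapped too. Lats2 (0.20, interval -0.26 to 0.67), Tead2 (0.26, -0.71 to 1.22) and Tead4 (0.86, -0.22 to 1.95) were higher in both injured-father hearts than in either uninjured-father heart, and Sav1 (-0.16, -0.54 to 0.22) was lower. Such separation without overlap was found for 14.3% of all genes upward and 16% downward, beside 3 and 1 of the 10 genes. The Tead4 difference rested on the 5 UMIs of the second uninjured-father heart, without which it was 0.37, and it was 2.22 without the first uninjured-father heart. The part of RNA leaked from endothelial nuclei in these Tead4 levels was not tested.

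**Figure D4:**
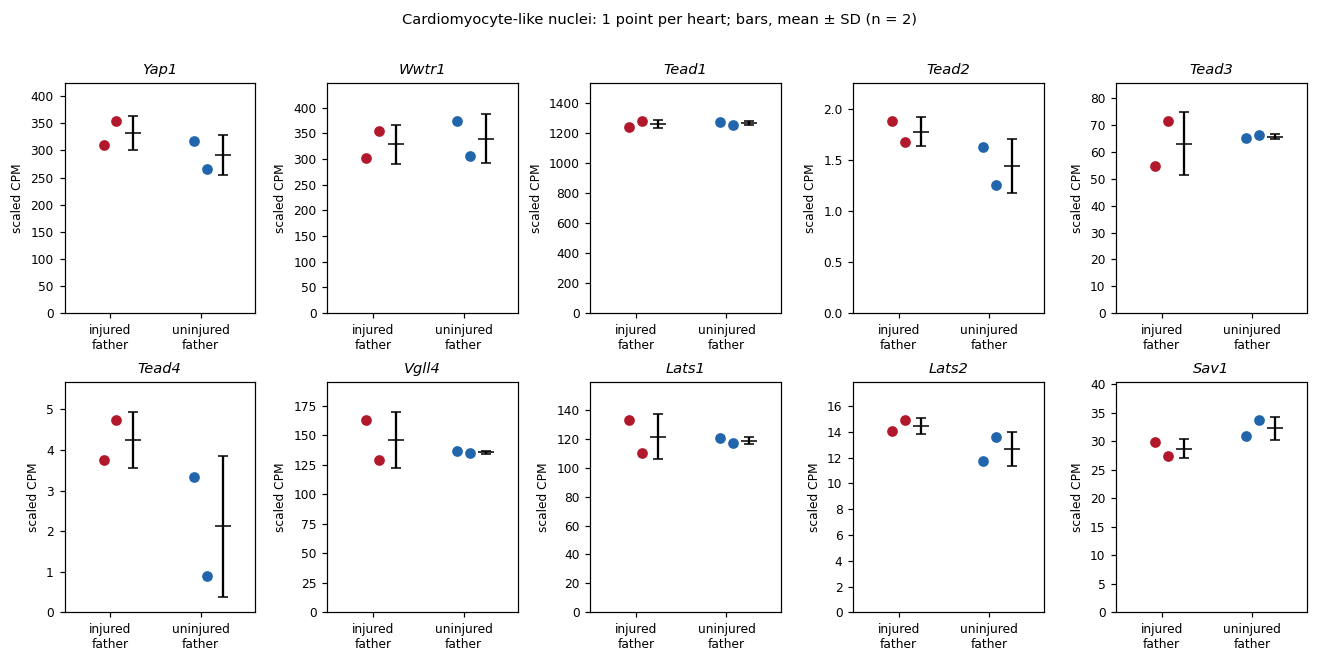
Scaled CPM (vertical axes from 0) of the 10 genes in cardiomyocyte-like nuclei of injured-father hearts (left, red) and uninjured-father hearts (right, blue); points are hearts and bars are means ± SD (n = 2). The Tead1 points lie between 1236 and 1276 in all 4 hearts, and Tead4 differs most, at 3.76 and 4.73 against 3.35 and 0.89.

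Outside cardiomyocyte-like nuclei, the single unadjusted p under 0.05 was that of Wwtr1 in vascular endothelial-like nuclei, 1 of 10 genes there. Both injured-father hearts, with 862 and 910 scaled CPM, were above both uninjured-father hearts, with 742 and 654, on 1382 to 3949 UMIs each, a separation that 17% of all genes showed. The log2 difference was 0.34 ± 0.12 (95% interval 0.09 to 0.60, adjusted p = 0.892, edgeR). The same contrast was -0.05 in cardiomyocyte-like nuclei, and the difference between the classes was -0.39 ± 0.13 (interval -0.67 to -0.11, adjusted p = 0.906, edgeR interaction). In the 7 classes other than cardiomyocyte-like ones, the Yap1 difference ran from 0.01 to 0.32 and the Vgll4 difference from 0.11 to 0.31, so both were positive in all 8 classes without passing in any. The classes come from the same 4 hearts and are not independent of each other. Within single classes, 48.8% to 51.2% of all genes were positive, and the share of all genes positive in all 8 was not taken. Without the first injured-father heart, the Vgll4 difference in cardiomyocyte-like nuclei was -0.073. The signs are therefore not read as a father effect. The lowest value was that of Lats2 in B lymphocyte-like nuclei (-1.02, interval -2.19 to 0.14), on 9 and 6 UMIs in the injured-father hearts, against 13 and 5 UMIs in the uninjured-father hearts. Tead2 in endocardial-like nuclei came next (-0.55, interval -1.16 to 0.06), with 36.2 and 41.3 scaled CPM in the injured-father hearts, against 49.3 and 68.1 in the uninjured-father hearts. Tead2 and Tead4 had too few UMIs to be tested in smooth muscle-like, macrophage- or monocyte-like and B lymphocyte-like nuclei, Tead3 in endocardial-like, macrophage- or monocyte-like and B lymphocyte-like nuclei, and Lats2 in smooth muscle-like nuclei.

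With all nuclei of a heart summed, 0 of the 10 genes passed, beside 0.121% of all genes called, and 2 of 10 had an unadjusted p under 0.05, beside 6.73% of all genes. Tead4 had 35.6 and 36.9 scaled CPM in the injured-father hearts, against 25.6 and 27.7 in the uninjured-father hearts (log2 difference 0.44 ± 0.12, adjusted p = 0.449, edgeR). Vgll4 had 219 and 200 scaled CPM in the injured-father hearts, against 174 and 167 in the uninjured-father hearts (0.29 ± 0.11, adjusted p = 0.654, edgeR). The groups did not overlap for either gene, as was the case upward for 17.9% of all genes. Among the 8 classes, both genes are highest in endothelial and endocardial nuclei, whose shares were also higher in the injured-father hearts. Vascular endothelial-like nuclei were 23.0% and 23.0%, against 19.2% and 20.2%. Endocardial-like nuclei were 3.47% and 4.43%, against 2.87% and 2.52%. In sums of this kind more nuclei of a class and more RNA per nucleus cannot be told apart. Within vascular endothelial-like nuclei the differences were 0.24 for Tead4 (interval -0.02 to 0.49) and 0.19 for Vgll4 (-0.07 to 0.44). The remaining 8 genes differed by -0.14 to 0.17 over all nuclei.

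**Figure D5:**
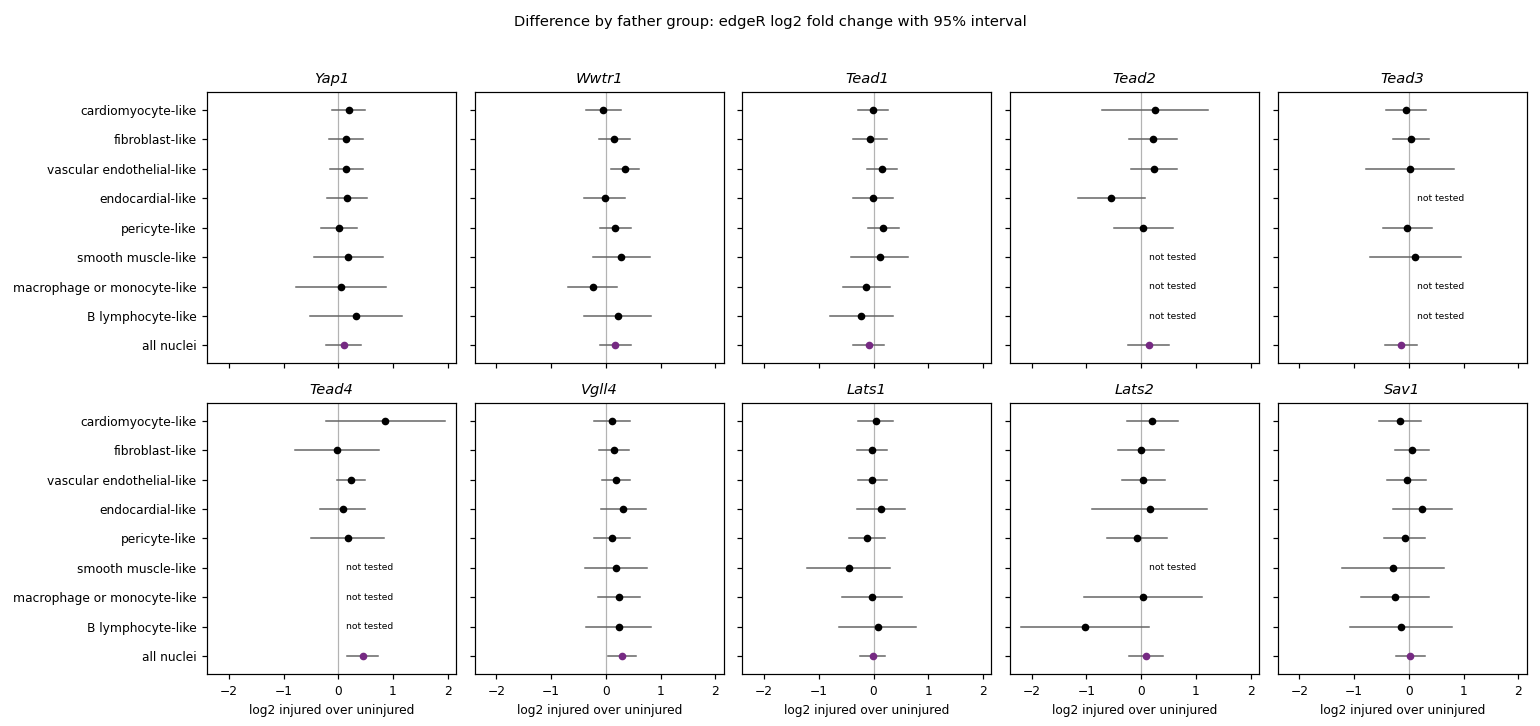
Log2 difference, injured over uninjured father (horizontal axes), for each gene in the 8 classes and in all nuclei summed (vertical axes), with 95% intervals from the edgeR fit as lines; classes with too few UMIs are marked as not tested. Intervals leave out 0 for Wwtr1 in vascular endothelial-like nuclei and for Tead4 and Vgll4 in all nuclei, and none of these passed the adjusted threshold.

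Whether the father effect differed between cardiomyocyte-like nuclei and another class was tested in 69 fits, and 0 passed. The share of all genes called was 0% against fibroblast-like, 0.00779% against vascular endothelial-like, 0.0397% against endocardial-like, 0.16% against pericyte-like, 0.072% against smooth muscle-like, 0.116% against macrophage- or monocyte-like and 0.0321% against B lymphocyte-like nuclei. At an unadjusted p under 0.05, 2 of the 69 passed (edgeR interaction). These were Wwtr1 against vascular endothelial-like nuclei, given above, and Tead4 against B lymphocyte-like nuclei (difference 2.08 ± 0.94, adjusted p = 0.996), where B lymphocyte-like nuclei held 7 and 2 UMIs in the injured-father hearts and 5 and 7 UMIs in the uninjured-father hearts.

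The other genes of the pathway were read in 4 lists. The kinase cassette list holds the upstream kinases, their adaptors and the phosphatase complex that counters them, and 31 of its 32 genes in the files could be tested in cardiomyocyte-like nuclei. By father group 0 of them passed, 19 were positive, and the median log2 difference was 0.05, beside 0.00 over all genes tested. Of the upstream regulators and Yap1 partners, 0 of 39 tested passed, with 28 positive, beside 49.5% of all genes, and a median of 0.06. Of the Yap1 and Taz target signature, which holds Ccn1, Ccn2, Ankrd1 and Amotl2, 0 of 19 passed, with 9 positive and a median of -0.03. Of the genes tied to Yap1 in cardiomyocytes, such as the dystrophin complex, fetal contractile genes and cyclins, 0 of 27 passed, with 13 positive and a median of 0.00. At an unadjusted p under 0.05, 1 of 31, 1 of 39, 1 of 19 and 3 of 27 genes of these lists passed in cardiomyocyte-like nuclei, beside 4.06% of all genes. In the other 7 classes and in all nuclei summed, 0 genes of the 4 lists passed either (edgeR), and DESeq2 called 2 in all nuclei, where it called 74 higher and 20 lower of all 14882 genes.

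The listed genes with the smallest p in cardiomyocyte-like nuclei were Rassf2, Myh7, Nppa and Acta1. Rassf2, which encodes a partner of the Mst kinases, had 6.36 and 5.52 scaled CPM in the injured-father hearts, against 2.80 and 2.15 in the uninjured-father hearts (log2 difference 1.22 ± 0.32, adjusted p = 0.754, edgeR). Myh7, the slow myosin heavy chain that the fetal heart uses, had 267 and 279 scaled CPM in the injured-father hearts, against 335 and 550 in the uninjured-father hearts (-0.69 ± 0.21, adjusted p = 0.884). Nppa, the atrial natriuretic peptide gene, had 113 and 304 scaled CPM in the injured-father hearts, against 114 and 91.1 in the uninjured-father hearts (1.03 ± 0.36). The cluster with Nppa among its leading genes held 9.23% and 12% of cardiomyocyte-like nuclei in the injured-father hearts, against 6.32% and 2.36% in the uninjured-father hearts, and its part in this difference was not tested. Acta1, skeletal actin, had 9.54 and 5.42 scaled CPM in the injured-father hearts, against 10.5 and 19.3 in the uninjured-father hearts (-0.98 ± 0.36). These 4 passed where no filter on low counts was used before the fit, a setting that called 125 higher and 51 lower of all 17823 genes, against 1 of 12511 with the filter. The other named genes gave log2 differences without passing: Tnik (-0.26), Slmap (-0.21), Ppp2r1a (0.22), Sgca (-0.28), Frmd6 (-0.31), Nedd4l (0.29), Vgll3 (0.69), Dchs2 (0.74), Igfbp3 (1.02), Nt5e (-0.30), Ptpn14 (0.18) and Ccdc80 (0.27).

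Between classes the lists moved in both directions, as all genes did. The list values are given with TMM factors only, without which the median gene moved by -0.58 against fibroblast-like nuclei. Of 30 kinase cassette genes tested against fibroblast-like nuclei, 15 were higher and 14 lower in cardiomyocyte-like nuclei, with a median log2 difference of 0.09, beside -0.04 over all genes. Against vascular endothelial-like nuclei 7 of 31 were higher and 18 lower, with a median of -0.52, beside -0.02. Of 26 genes tied to Yap1 in cardiomyocytes, a list that holds contractile and dystrophin complex genes typical of the cell type, 21 were higher and 4 lower than in fibroblast-like nuclei, with a median of 1.89. Of 19 target genes, 6 were higher and 10 lower than in fibroblast-like nuclei, with a median of -0.30. The median of the target genes depended on the class set against cardiomyocyte-like nuclei. It was -0.23 against vascular endothelial-like, -0.78 against pericyte-like, -1.20 against endocardial-like and -1.79 against smooth muscle-like nuclei. Against macrophage- or monocyte-like and B lymphocyte-like nuclei it was 0.90 and 1.35.

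The upstream kinases and targets were further looked up by class, as genes chosen after their values were seen. Stk3, the gene of Mst2, was at 157 ± 19.8 scaled CPM in cardiomyocyte-like nuclei, against 335 to 493 in the other classes except B lymphocyte-like nuclei, which had 142. It was lower in cardiomyocyte-like than in fibroblast-like nuclei (log2 difference -1.31 ± 0.06, adjusted p = 3.65e-09, edgeR). Mob1a, an adaptor of the Lats kinases, was lower too (-1.03 ± 0.11 against fibroblast-like nuclei), while its paralogue Mob1b was higher (1.08 ± 0.07). Nf2, the upstream regulator merlin, was higher in cardiomyocyte-like nuclei in all 7 comparisons, by 0.76 to 1.12. Amotl1, an angiomotin that binds Yap1, was at 43.8 ± 5.52 in cardiomyocyte-like nuclei, against 304 ± 12.9 in pericyte-like and 216 ± 18.7 in vascular endothelial-like nuclei. Of the targets, Ankrd1 was at 310 ± 116 in cardiomyocyte-like nuclei and at 18.5 to 44.2 in the other classes. By heart, Ankrd1 in cardiomyocyte-like nuclei had 162 and 403 scaled CPM in the injured-father hearts, against 275 and 401 in the uninjured-father hearts. Ccn1 had 8.67 and 22.0 scaled CPM in the injured-father hearts, against 17.9 and 20.2 in the uninjured-father hearts. Ccn2 had 16 and 56.7 scaled CPM in the injured-father hearts, against 26.4 and 22.5 in the uninjured-father hearts. All 3 were lowest in the first injured-father heart, and the groups overlapped for each of them.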

How the data were processed

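Single-nucleus libraries of 4 snap-frozen hearts were made with a droplet 3' kit after Ter119 sorting against blood cells, per the labels' protocols. The authors deposited raw UMI counts per gene and barcode. Per the file headers these come from Cell Ranger 6.0.1, and the submitters' processing notes list Seurat 4.0. The sources used here give no genome build, annotation or setting for introns. Of the 21884 gene identifiers, 21779 are in GENCODE M21 (GRCm38), which gave the positions, and the promoters are from RefSeq GRCm38.p6.

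Nuclei with at least 500 UMIs, 300 genes and under 5% mitochondrial UMIs were kept, and doublets called by Scrublet (scanpy 1.11.5) in each library were removed. Clusters (Leiden, resolution 1, 3000 variable genes without the 10 genes and the listed genes, 30 components) were named from 17 marker lists. A cluster was left unnamed where markers of another lineage came second with a mean log2 score of at least 1. It was also left unnamed where red-cell, neutrophil, lung or skeletal muscle markers led, but these were not counted in second place. The largest vascular endothelial-like cluster, of 2844 nuclei, thus kept its name with red-cell markers second at 1.72. This rule was chosen after the clusters were seen. UMIs were summed per class and heart and tested with edgeR 4.0.16 (quasi-likelihood, TMM, at least 10 counts by filterByExpr, Benjamini-Hochberg over all genes) on R 4.3.3. Standard errors and 95% intervals come from the same fit, SE being the log2 difference over the root of F. Alternatives were DESeq2 1.42.0, limma-voom 3.58.1, other scalings, filters and nuclei, and each heart left out. The profiles were correlated on scaled CPM rather than on CPM without factors. The fits were tested on simulated data.

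All 10 genes are described, with values per heart in cardiomyocyte-like nuclei and in the class of the highest mean. From each list the 4 genes with the smallest p in cardiomyocyte-like nuclei are named, and for 5 of the 10 genes the 3 most alike profiles, without predicted genes. Some of these are not reported here. The members and lists were chosen with earlier results of these data known. The scaling by UMI totals was added after the data were seen.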

Additional observations from a re-analysis of the deposited data

How the results depend on the processing

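For the 10 genes by father group, 0 calls were made under all 125 alternatives, the replicate block included. Whether replicate numbers pair hearts across the groups was checked: deviations of same-numbered hearts from their group means correlated at r = 0.0699 over 14882 genes, and the labels give the numbers no shared litter or day. With 1 heart left out, log2 differences that had not passed turned sign. In cardiomyocyte-like nuclei they ran from -0.17 to 0.086 for Wwtr1, -0.024 to 0.013 for Tead1, -0.26 to 0.12 for Tead3, -0.11 to 0.17 for Lats1 and -0.073 to 0.27 for Vgll4. In all nuclei they ran from -0.050 to 0.26 for Yap1, -0.027 to 0.28 for Tead2, -0.067 to 0.024 for Lats1 and -0.050 to 0.096 for Sav1. Tead1 was 0.0071 and Ccdc80 -0.051 with doublets kept, and Tead1 was 0.0053 in the largest cluster. Listed genes called by father group, 0 in each class and in all nuclei, numbered 4 in cardiomyocyte-like, 2 in fibroblast-like, 1 each in vascular endothelial-like, endocardial-like and pericyte-like nuclei and 2 in all nuclei with no filter on low counts. With the replicate block they were 2 in fibroblast-like, 1 each in endocardial-like and pericyte-like nuclei and 3 in all nuclei. They were 2 in all nuclei with DESeq2 and 1 in endocardial-like nuclei with a stricter filter on nuclei. With 1 heart left out they ran from 0 to 2 in cardiomyocyte-like, 0 to 4 in fibroblast-like, 0 to 2 in vascular endothelial-like, 0 to 1 in endocardial-like, pericyte-like and smooth muscle-like nuclei and 0 to 9 in all nuclei.

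Between classes, 917 log2 differences under an alternative kept direction and side of the threshold, 24 turned, 14 lost and 9 gained a call. With UMI totals as the only scaling, Lats1 was -0.51 against fibroblast-like, -0.35 against vascular endothelial-like, -0.38 against pericyte-like, -0.31 against smooth muscle-like, -0.18 against macrophage- or monocyte-like and -0.27 against B lymphocyte-like nuclei. Wwtr1 was then -0.23 against pericyte-like and -0.34 against smooth muscle-like nuclei, and Tead3 -0.11 against fibroblast-like and -0.013 against pericyte-like nuclei. Of the 10 genes, 7 were then lower than in fibroblast-like nuclei, 2 higher and 7 lower than in pericyte-like and 1 higher than in smooth muscle-like nuclei. With doublets kept, Tead4 was 0.71 and Wwtr1 0.020 against fibroblast-like nuclei. Lats1 against endocardial-like nuclei was 0.014 with RLE scaling, 0.10 with no filter and 0.017 with DESeq2. Lats2 against smooth muscle-like nuclei was 0.022 with no filter, and in the largest clusters Tead3 was 0.11 and Lats1 -0.17 there. With 1 heart left out, Wwtr1 ran from -0.063 to 0.038 against fibroblast-like and -0.031 to 0.16 against smooth muscle-like nuclei, and Lats1 from -0.084 to 0.085 against endocardial-like and -0.064 to 0.41 against smooth muscle-like nuclei. Lats2 ran from -0.39 to 0.29 against smooth muscle-like nuclei, and 2 to 4 of the 10 genes were lower than in B lymphocyte-like nuclei. The causes were not tested. Tead2 and Tead4 in cardiomyocyte-like nuclei rest on 55 and 116 UMIs in all, which limits what their differences can show.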
